A study of Mus musculus with 173 samples.

Results

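Notch signalling was followed through 10 genes of a single-cell RNA-seq table from the mouse dentate gyrus: the receptors Notch1, Notch2 and Notch3, the ligands Dll1 and Jag1, the transcriptional repressors Hes1, Hes5, Hes6 and Hey1, and the DNA-binding partner Rbpj. The genes were taken by name from the 23307 in the table, and 10 of 10 reached 1 TPM (transcripts scaled to a common total, a length-scaled share of a library's transcripts) in at least 5% of libraries. The study profiled quiescent neural stem cells of the adult hippocampus and the cells that descend from them first. Each library is 1 cell from a C57BL/6 mouse aged 8 to 12 weeks. The titles divide the 172 libraries into 26 N, 4 R and, for all others, C, letters that the labels do not spell out, and no treatment, genotype, sort or animal is given for any of these classes. A cyan fluorescent protein (eCFP) row in the table had a median of 8739 TPM over C, against 44.6 over N and 11.99 over R, so a transgene was part of the reference, but its promoter is not stated in the labels.

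Notch receptors are membrane proteins that are cleaved when a Delta or Jagged ligand on a neighbouring cell binds them. The released intracellular domain joins Rbpj and Mastermind proteins on DNA and turns on genes of the Hes and Hey families, whose products repress proneural genes. In the adult dentate gyrus this pathway is known for its part in maintaining neural stem cells. Hes6 belongs to the same family but is known to oppose Hes1 and to be active in neuronal precursors.

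Because no source animal is named, cells are not replicates and each title class counts as 1 sample. No test was therefore made: all SDs are between libraries, and intervals on shares of libraries (Clopper-Pearson, 95%) cover counting error only. TPM carries no read number, so sequencing depth is unknown. The number of genes at 1 TPM or more was 3734 ± 930.2 in C, 3512 ± 939 in N and 3199 ± 618 in R. A value of exactly 0 can be a failed estimate (Gapdh was at 0 in 2 libraries), and such genes are only said to be listed at 0. By mean log2(TPM + 1) of marker lists, 34 libraries reached 4 for oligodendrocyte precursors, oligodendrocytes, endothelial cells, mural cells, mature neurons or microglia: 14 C, 16 N and 4 of 4 R. The remaining C libraries carried the stem cell markers of the labelled tissue at a range of levels. The astrocyte, neuroblast and erythroid lists were not used for this choice. N8 and N9 (neuroblast list at 7.36 and 4.96) and N11 (astrocyte list at 8.94) were therefore not marked. The results below are also given without the 14 C and 16 N libraries where that moved a count. The 4 R libraries were kept throughout.

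Promoter sequences (250 bases before to 50 after a start, RefSeq, build GRCm38.p6) were found for 8 of the 10 genes. Hes1 and Hey1 were not among them. The letters GTGGGAA, which Rbpj is known to bind, occurred on either strand in 6.38% of 32851 such windows of 300 bases, and of the 11 windows of these genes only that of Hes5 held them. The shorter TGGGAA, which lies inside GTGGGAA, was in 25.6% of all windows and in those of Hes5 and Rbpj. The first 250 bases of the Hes5 window are shown because they hold the letters on both strands, TTCCCAC from position 25 and GTGGGAA from position 168, in capitals. The corresponding stretch of Hes6 is shown beside it for contrast, since Hes6 held neither form in its 2 windows. Its capitals mark CACCAG, a match to the N-box CACNAG that Hes repressors are known to bind. CACNAG was in 42.5% of all windows and in those of Dll1, Hes6, Notch1, Notch2 and Notch3, and CACGCG, another site of Hes and Hey repressors, was in 9.27% and in those of Dll1, Jag1 and Notch2. These matches describe letters in a window and say nothing of binding in these cells.
Hes5 promoter, chr4:154960673-154960922, plus strand: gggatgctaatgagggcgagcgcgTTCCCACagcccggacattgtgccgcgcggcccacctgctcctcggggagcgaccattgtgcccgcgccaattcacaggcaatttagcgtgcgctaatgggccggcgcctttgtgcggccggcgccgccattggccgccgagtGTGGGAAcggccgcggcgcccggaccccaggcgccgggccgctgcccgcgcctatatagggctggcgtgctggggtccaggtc
Hes6 promoter, chr1:91413223-91413472, minus strand: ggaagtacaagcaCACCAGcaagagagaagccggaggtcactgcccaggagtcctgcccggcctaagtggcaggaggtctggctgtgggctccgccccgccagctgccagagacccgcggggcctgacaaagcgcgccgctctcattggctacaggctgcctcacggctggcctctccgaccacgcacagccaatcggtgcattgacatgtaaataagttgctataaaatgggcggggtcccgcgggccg

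Across the C libraries, Notch2 and Notch1 were the most widely seen of the 10 genes and Notch3 was seldom seen. Notch2 led by share of libraries, by mean TPM and by mean log2 level. By mean log2(TPM + 1) the order was Notch2 (4.22), Notch1 (2.88), Hes1 (2.35), Jag1 (2.08), Rbpj (1.37), Hes6 (1.29), Hes5 (0.87), Dll1 (0.61), Hey1 (0.29) and Notch3 (0.19). Each step between neighbours was smaller than the SD between libraries of either gene. Ranked by mean TPM instead, Hes6 moved up to the second place (52.8 TPM), since a few libraries were very high. In N the order was another one, with Jag1 (2.31) and Hes1 (1.49) ahead of Notch1 (1.01). At 1 TPM or more, C libraries held a median of 3 of the 10 genes, N libraries 1 and R libraries 1.

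**Figure D1:**
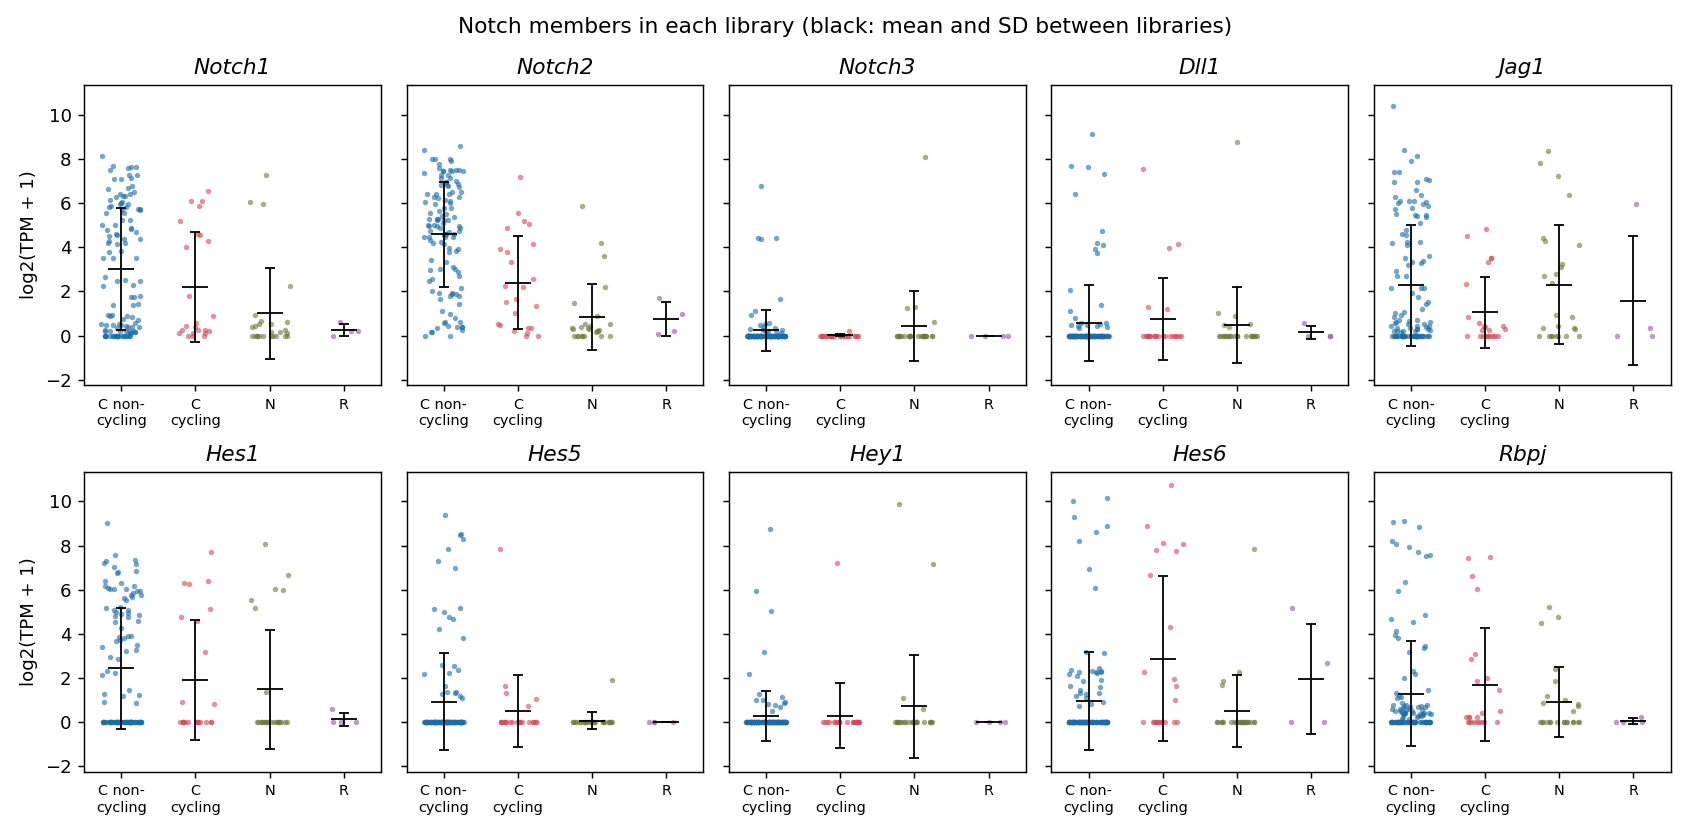
Each point is 1 library, with log2(TPM + 1) on the y axis and the libraries grouped as non-cycling C, cycling C (24), N (26) and R (4); black marks give the mean and the SD between libraries, and an SD can reach below 0 although no value does. Notch2 is the only member above 1 TPM in most C libraries of both kinds, and most other members are a row of points at 0 with some high libraries above it.

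Notch2 had the largest difference between C and N of the 10 genes. In C it was at 1 TPM or more in 83.8% of libraries (interval 76.7 to 89.4), with a median of 23.3 TPM and a highest value of 381.5 TPM in library C116. In N it was at 1 TPM or more in 5 of 26 (19.2%, 6.555 to 39.4), with a median of 0.23 TPM and a highest value of 57.9 TPM in N22. The 2 classes overlapped, because 23 C libraries lay under 1 TPM and 3 N libraries lay above 10 TPM. On the log2 scale the mean was 4.22 ± 2.47 in C and 0.85 ± 1.49 in N, a difference of 3.37.

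Notch1, the receptor best studied in neural stem cells, was less widely seen than Notch2. In C it reached 1 TPM in 78 libraries (54.9%, 46.4 to 63.3), with a median of 3.14 TPM and a highest value of 280.6 TPM in C30. In N it did so in 4 of 26 (15.4%, 4.36 to 34.9), and these were N12 at 152.0 TPM, N25 at 64.9, N7 at 61.1 and N15 at 3.78. The mean log2 level was 2.88 ± 2.72 in C and 1.01 ± 2.06 in N, so the difference of 1.86 was smaller than the SD of either class, whereas that of Notch2 was larger than both. Where Notch1 was seen in C it was not low: its median over those 78 libraries was 36.3 TPM, beside 31.4 TPM for Notch2 over the libraries that had it.

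Within single C libraries, Notch2 exceeded Notch1 in 99 and Notch1 exceeded Notch2 in 42. Both were at 1 TPM or more in 67 libraries, Notch2 alone in 52, Notch1 alone in 11 and neither in 12. Notch2 was seen in 85.9% of the libraries with Notch1 and in 81.2% of those without it; with 10 TPM as the limit for both genes, the shares were 73.8% and 54.5%. Over all C libraries the Spearman correlation of the 2 receptors was 0.32, a description of cells that share library preparation and unknown depth. The 3 receptors summed to a mean of 86.8 TPM in C, of which Notch2 made up 62.3%, Notch1 36.3% and Notch3 1.43%. In N they summed to a mean of 25.3 TPM but a median of 0.63 TPM.

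**Figure D2:**
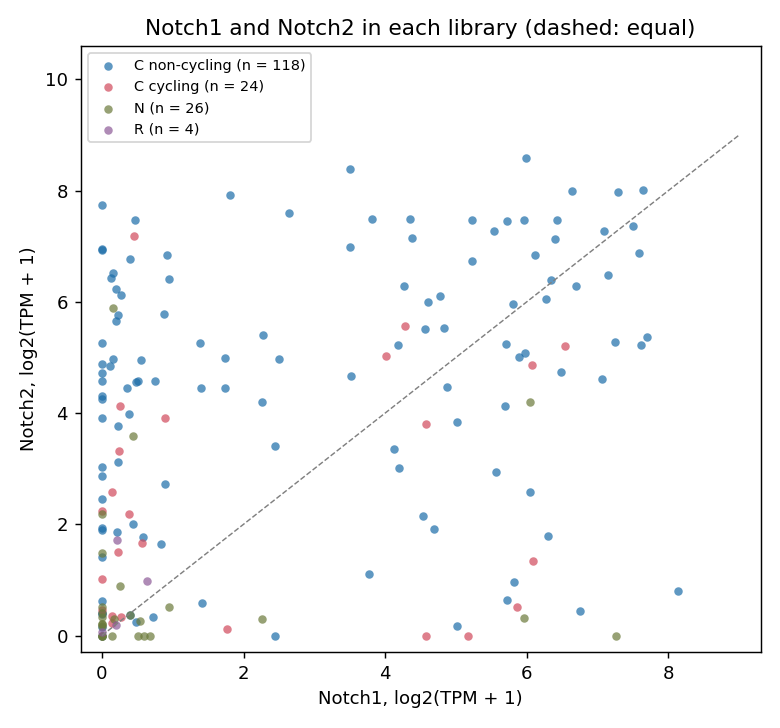
Notch1 (x axis) and Notch2 (y axis) in each library, both as log2(TPM + 1), coloured by non-cycling C, cycling C, N and R; the dashed line marks equal levels. Of the C libraries, 99 lie above the line and 42 under it, and 18 of the 26 N libraries have neither receptor at 1 TPM.

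Notch3, a receptor known from the mural cells of blood vessels, was rare in this table. It reached 1 TPM in 6 C libraries (4.23%, 1.57 to 8.97) and 3 of 26 N libraries (11.5%, 2.45 to 30.2). The 2 highest, N14 at 273.1 TPM and C129 at 108.1 TPM, both had the mural list as their leading marker list. The next were C137 at 20.6, C60 at 20.5 and C63 at 19.4 TPM, each led by stem cell markers. Of these, C137 and C63 also reached 4 on the mature neuron list (4.01 and 4.33), and C60 reached 4 on no list of another cell type. Of the 4 libraries with a mural list mean of at least 4, Notch3 was at 1 TPM or more in 3, and Jag1 in 4 of 4.

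Jag1, a Jagged-family ligand, was the more widely seen of the 2 ligands and did not follow Notch1 and Notch2 across the classes. It reached 1 TPM in 60 C libraries (42.3%, 34.02 to 50.8) and 12 of 26 N libraries (46.2%, 26.6 to 66.6). Its median was 0.43 TPM in C and 0.84 TPM in N, and its highest values were 1327 TPM in C78 and 328.1 TPM in N12. The mean log2 level was 2.08 ± 2.62 in C and 2.31 ± 2.71 in N, a difference of -0.23 that became 0.48 without the libraries carrying another cell type's markers. Within C, Jag1 was seen in 47.1% of the libraries with Notch2 and in 17.4% of those without it.

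Dll1, a Delta-family ligand, was in 18 C libraries (12.7%, 7.69 to 19.3) and 2 of 26 N libraries (7.69%, 0.946 to 25.1). Its highest values were 549.4 TPM in C108 and 435.8 TPM in N24, and both of these libraries were led by the oligodendrocyte precursor list. Of the 11 libraries at 4 or more on that list, 6 had Dll1 at 1 TPM or more (54.5%), against 9.38% of the C libraries without another cell type's markers. Those 11 were 6 C and 5 N libraries, and N24 was the only N library among them with Dll1. None of those 11 had Notch2 at 1 TPM, the highest being 0.53 TPM. Outside them, high Dll1 was found in C65 (200.6 TPM), C114 (194.8 TPM) and C60 (160.2 TPM), all led by stem cell markers. Dll1 and Jag1 were both seen in 7 C libraries, and 71 had neither.

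Hes1, a repressor that Notch is known to induce, was the most widely seen target. It reached 1 TPM in 66 C libraries (46.5%, 38.1 to 55.03) and 7 of 26 N libraries (26.9%, 11.6 to 47.8), and 72 C libraries listed it at 0. The highest values were 527.2 TPM in C33 and 272.3 TPM in N6, a library led by endothelial markers. The mean log2 level was 2.35 ± 2.75 in C and 1.49 ± 2.70 in N, a difference of 0.86. Without the libraries carrying another cell type's markers that difference was 2.18, with 10 N libraries left. Among these were still N8 and N9 with neuroblast markers and N11 with astrocyte markers. Of the 7 libraries at 4 or more on the endothelial list, 4 had Hes1 at 10 TPM or more. Among these, C139 was higher on the oligodendrocyte precursor list (6.69) than on the endothelial list (6.25).

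Hes5, the other main Hes target in neural progenitors, was seen in a single library outside C. It reached 1 TPM in 30 C libraries (21.1%, 14.7 to 28.8) and in 1 of 26 N libraries (3.85%, 0.0973 to 19.6), N15, at 2.73 TPM. C libraries were spread from 0 to 669.1 TPM (C33), with 8 at 100 TPM or more. Since it was listed at 0 in most C libraries, the mean log2 difference was 0.80 (0.87 ± 2.10 in C and 0.07 ± 0.37 in N). Hes1 and Hes5 were seen together in 16 C libraries, Hes1 alone in 50 and Hes5 alone in 14. C33 held the highest value of both.

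Hey1, a related repressor known also from blood vessels, reached 1 TPM in 10 C libraries (7.04%, 3.43 to 12.6) and 3 of 26 N libraries (11.5%, 2.45 to 30.2). Its highest values were 942.9 TPM in N10, led by oligodendrocyte precursor markers, 427.0 TPM in C106 and 148.8 TPM in C120, both led by stem cell markers, and 143.8 TPM in N12, led by endothelial markers. Its mean log2 difference of -0.43 between C and N became 0.15 without the libraries carrying another cell type's markers. Hes6 reached 1 TPM in 41 C libraries (28.9%, 21.6 to 37.1) and 4 of 26 N libraries (15.4%, 4.36 to 34.9). Rbpj, through which all 3 receptors act, was at 1 TPM or more in 37 C libraries (26.1%, 19.1 to 34.1) and 7 of 26 N libraries (26.9%, 11.6 to 47.8), so its share was close in both classes. Its highest value was 553.1 TPM in C40 and 36.2 TPM in N25. The levels were less close than the shares, since 11 C libraries and 0 N libraries reached 100 TPM. Averaged without logs, Rbpj stood at 26.6 TPM over C against 3.67 over N. On the log2 scale C was higher by 0.45, which was smaller than the SD of either class (2.41 and 1.57).

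Counted over C against N, 2 of the 10 genes (Notch1 and Notch2) were higher by at least 1 in mean log2(TPM + 1), where 9.98% of 12007 genes were, and 0 were lower, where 4.19% were. Of the 10, 7 had a positive difference, with a median of 0.61 beside 0.17 over all genes tested. Without the libraries carrying another cell type's markers, Hes1 joined and the count was 3. Marker lists also differed between the classes. Of the oligodendrocyte precursor and the oligodendrocyte lists, 7 of 8 genes each were lower in C by at least 1, and 5 of 8 endothelial and 4 of 8 mural genes were. All 11 stem cell genes were higher in C. The summed TPM of the oligodendrocyte list ranged from 0 to 2892 in C and from 1.51 to 60390 in N, that of the oligodendrocyte precursor list from 0 to 4189 and from 0 to 5136, and that of the endothelial list from 0 to 12816 and from 0 to 33177. Of the mural list, which summed to 0.12 to 84088 TPM in C and 1.90 to 54162 TPM in N, Kcnj8 was listed at 0 in every N library. Notch1 and Notch2 differed by 2.58 and 3.73 without the marked libraries.

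Other genes of the pathway were read from a list of 47, of which 34 passed the 5% filter. Between C and N, 2 were higher by at least 1, where 9.98% of all genes were, and 1 lower, where 4.19% were. The median difference of the 34 was 0.0016 beside 0.17 over all genes. Psenen, which encodes a subunit of gamma-secretase, the enzyme that cleaves Notch, was among the higher ones. It was at 1 TPM or more in 73.2% of C and 46.2% of N libraries (mean log2 6.23 ± 4.40 and 3.19 ± 4.06). The lower one, Ncstn, which encodes another subunit of that enzyme, was at 1.47 ± 2.54 in C and 2.67 ± 3.27 in N. Notch4, the remaining mammalian receptor, reached 1 TPM in 1 C library (161.3 TPM in C1) and was listed at 0 in all N and R libraries.

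**Figure D3:**
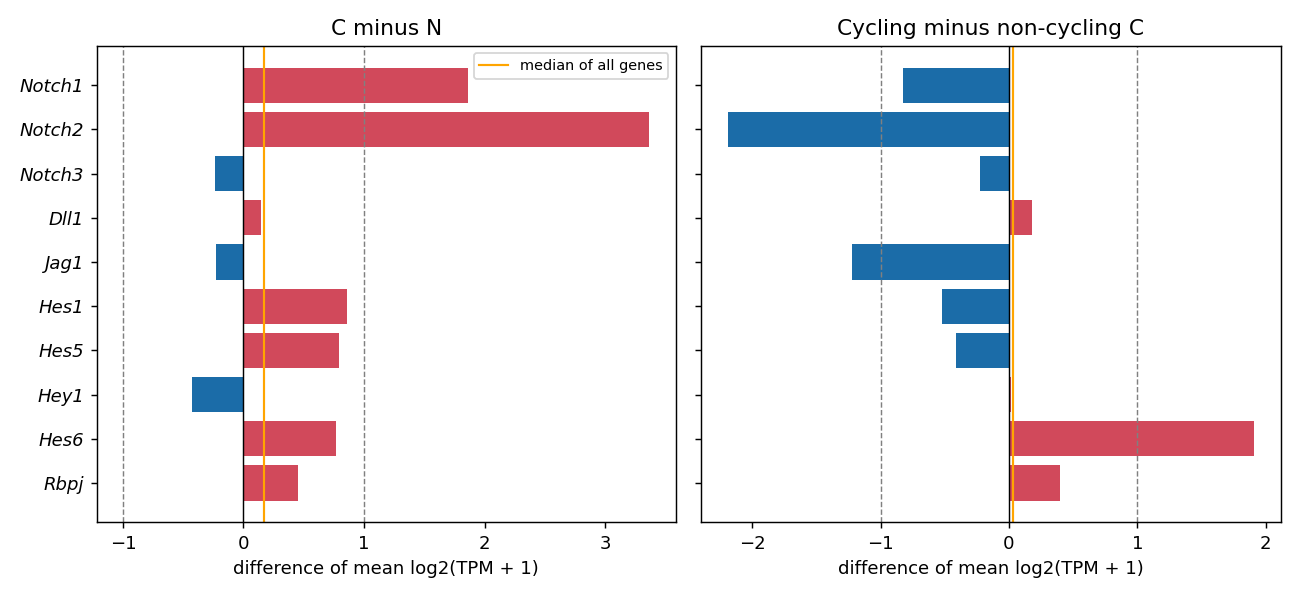
Difference of mean log2(TPM + 1) for each of the 10 genes, C minus N on the left and cycling minus non-cycling C on the right; dashed lines mark 1 and -1 and the orange line the median over all 12007 genes. Notch2 has the longest bar in both panels, 3.37 to the higher side for C and -2.19 for cycling cells, and Hes6 is the one member past 1 in cycling cells (1.91).

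Cycling cells within C were defined by the mean log2(TPM + 1) over 41 genes of S phase and of G2 and mitosis, none of them among the 10. At a mean of at least 2.5, 24 C libraries were cycling and the others were not. The lowest cycling library was at 2.74 and the highest non-cycling one at 2.26, and 5 libraries lay between 2 and 3. Mki67, a proliferation marker that is itself in the list, was at 1 TPM or more in 17 of 24 cycling libraries and in 9 others. Genes seen per library were close, 3902 ± 839 in cycling and 3700 ± 947 in non-cycling cells.

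Cycling C cells had lower Notch2 and Jag1 and higher Hes6 than non-cycling ones. Notch2 was at 1 TPM or more in 16 of 24 cycling cells (66.7%, 44.7 to 84.4) and in 87.3% of non-cycling cells (79.9 to 92.7). Its median was 2.85 TPM in cycling cells, with a highest value of 144.4 TPM (C83), against 30.2 TPM and 381.5 TPM in the others. Mean levels were 2.40 ± 2.12 against 4.59 ± 2.37, a difference of -2.19 that was about the size of the SDs. A level of 100 TPM was reached by 1 of 24 cycling and 28 non-cycling cells.

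Jag1 was at 1 TPM or more in 6 of 24 cycling cells (25%, 9.77 to 46.7) and 54 non-cycling cells (45.8%, 36.6 to 55.2). No cycling cell exceeded 27.4 TPM (C61), whereas 10 non-cycling cells reached 100 TPM. The mean log2 level was 1.06 ± 1.61 against 2.29 ± 2.74, a difference of -1.22 that was smaller than either SD. With a pseudocount of 10 in place of 1 it was -0.68 and no longer reached 1.

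Hes6 went the other way. It was at 1 TPM or more in 11 of 24 cycling cells (45.8%, 25.6 to 67.2) and 30 non-cycling cells (25.4%, 17.9 to 34.3). In the cells where it was seen, its median was 214.5 TPM when cycling and 3.86 TPM when not. It reached 100 TPM in 6 of 24 cycling cells, led by C79 at 1695 TPM and C135 at 469.0 TPM, and in 7 non-cycling cells, led by C112 at 1150 TPM. Mean levels on the log2 scale were 2.88 ± 3.74 against 0.97 ± 2.23, a difference of 1.91. Both groups ran from 0 to above 1000 TPM, so they overlapped over the whole range.

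The other 7 genes stayed within 1 between cycling and non-cycling cells. Notch1 was at 1 TPM or more in 10 of 24 (41.7%, 22.1 to 63.4) and in 68 non-cycling cells (57.6%, 48.2 to 66.7), with means of 2.19 ± 2.499 and 3.02 ± 2.75, a difference of -0.82. The shares were 33.3% and 49.2% for Hes1, 16.7% and 22.03% for Hes5, 20.8% and 11.02% for Dll1, and 37.5% and 23.7% for Rbpj, and these differences in mean log2 level ran from -0.52 to 0.40. Notch3 reached 1 TPM in 0 of 24 cycling cells (interval up to 14.2%) and Hey1 in 1 (C120, 148.8 TPM). The mean receptor sum was 31.7 TPM in cycling and 98.03 TPM in non-cycling cells. Notch2 made up 47.1% and 63.3% of it, and Notch1 52.8% and 35.2%. Mean Notch1 was 16.8 TPM and 34.5 TPM.

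By the same count as above, 1 of the 10 genes was higher by at least 1 in cycling cells, where 15.6% of all genes were, and 2 were lower, where 4.88% were. The median difference was -0.32 beside 0.03 over all genes. Among the 34 pathway genes, Snw1, a co-activator of the Notch complex that also works in splicing, was higher (4.82 ± 3.66 against 3.37 ± 3.41). The Mastermind co-activator Maml2 (0.77 ± 1.49 against 2.12 ± 2.78) and the ubiquitin ligase genes Dtx3 (0.50 ± 1.39 against 1.87 ± 2.92) and Itch (0.52 ± 1.06 against 1.55 ± 2.60) were lower. Hes6 was higher and Notch2 and Jag1 lower by at least 1 under each of 5 other definitions of cycling cells.

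The cycling cells also differed in cell identity markers. Of the stem cell list, 10 of 11 genes were lower in them by at least 1, and 5 of 8 astrocyte genes were. Of the intermediate progenitor list, 6 of 9 genes were higher, and 3 of 8 neuroblast genes were. The summed TPM of the stem cell list ran from 759.4 to 15580 in cycling and from 97.5 to 82605 in non-cycling cells, that of the astrocyte list from 2.32 to 1896 and from 3.72 to 7842, and that of the progenitor list from 8.91 to 4023 and from 0.50 to 6823. No gene of these 3 lists was at 0 throughout either group. Mean eCFP was 6407 TPM and 10224 TPM. The part of these markers in the Notch2, Jag1 and Hes6 differences was not tested.

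The 4 R libraries, all of which carried mature neuron markers, had little of any member except Hes6 and Jag1. They carried other markers too. In R1 the stem cell list (7.35) lay above the mature neuron list (5.68), and R3 was at 6.14 on the astrocyte and 5.58 on the neuroblast list. Notch2 was 0.98, 0.14, 0.05 and 2.29 TPM in R1 to R4, and Notch1 was 0.55, 0.15, 0 and 0.16 TPM. Hes6 was 5.51 and 35.4 TPM in R1 and R2 and listed at 0 in R3 and R4. Jag1 was 61.8 TPM in R2 and at most 0.28 TPM in the other 3. R libraries therefore lay within the lower part of the C range for both receptors. Notch3, Hes5 and Hey1 were listed at 0 in all 4, which with so few cells still allows a share of up to 60.2% of such cells (upper end of the interval for 0 of 4).

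Compared with C, 4 of the 10 genes (Notch1, Notch2, Hes1 and Rbpj) were lower in R by at least 1, with 22% of all genes lower, and 0 were higher, with 20.9% of all genes higher. The median difference was -0.68 beside -0.36 over all genes. Compared with N, 1 gene (Hes6, 1.45) was higher, with 23.8% of all genes higher, and 1 (Hes1, -1.35) was lower, with 17.5% lower; both comparisons use the same 4 R libraries. The Hes6 difference from N rested on R2: without that library it was 0.37 and no member was higher, while Hes1 was at -1.30 and Jag1 at -2.19 was lower too. Among the pathway genes, 6 of 34 were higher and 8 lower in R than in C, with a median of -0.43. Ncstn stood out by its evenness, from 244.4 to 702.4 TPM in the 4 libraries (8.86 ± 0.71 against 1.47 ± 2.54 in C); it was chosen for mention after its values were seen. Of the mature neuron list, 9 of 10 genes were higher in R, with a summed TPM from 4630 to 10057 in R and from 0 to 5138 in C, and no gene at 0 in all 4. Of the stem cell list, 6 of 11 genes were lower in R and 1 was higher (summed TPM from 7685 to 10546 in R and from 97.5 to 82605 in C). Of the intermediate progenitor list, 5 of 9 genes were lower (0 to 11.2 TPM in R, 0.5 to 6823 in C), and Neurog2, Insm1 and Mfap4 were at 0 in all 4 R libraries. Genes of further lists also differed in R, and 7 of 8 neuroblast genes were higher (143.9 to 1290 TPM in R, 0 to 5752 in C). Of the oligodendrocyte list, 5 of 8 genes were higher and 1 was lower (502.1 to 2006 in R, 0 to 2892 in C). Of the microglia list, 4 of 8 genes were higher and 1 was lower (0 to 978.5 TPM in R, 0 to 561.0 in C), with Aif1, Tmem119 and Itgam at 0 in all 4. Of the erythroid list, 3 of 5 genes were higher and 0 lower (23.5 to 1235 TPM in R, 0 to 9935 in C). Of the astrocyte list, 2 of 8 genes were higher and 1 was lower, with Aldh1l1 at 0 in all 4 (307.55 to 1427 TPM in R, 2.32 to 7842 in C). The part of these markers in the R differences was not tested.

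Clusters of all libraries, made without the 10 genes, the pathway list, the marker and cell cycle lists or eCFP, placed the members in different cells. Of 8 clusters, 3 were stem cell-like (43, 29 and 18 libraries), 1 progenitor-like (27), 1 oligodendrocyte precursor-like (12), 1 neuron-like (9, with all 4 R), 1 endothelial-like (8), and 1 of 26 libraries with Mbp among its leading genes was left unnamed. The unnamed cluster mixed 19 C and 7 N libraries. Its highest marker list was the stem cell list (mean 6.27), against 1.86 for the oligodendrocyte list. Its C libraries, with C78 among them, are not part of the order of C cells below. Notch2 was highest in the stem cell-like clusters, at 5.36 ± 2.27, 4.76 ± 1.93 and 5.77 ± 1.52, where it reached 1 TPM in 39 of 43, 28 of 29 and 18 of 18 libraries. It was at 2.34 ± 2.004 in the progenitor-like cluster and at 0.85, 0.88 and 0.51 in the precursor-like, neuron-like and endothelial-like ones. Notch1 was more even over the C clusters, at 3.15, 2.96 and 3.79 in the stem cell-like and 2.86 in the progenitor-like cluster.

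The targets and ligands differed even among the stem cell-like clusters. Hes5 was seen in 13 of 29 libraries of cluster 2 (1.94 ± 2.71) but in 9 of 43 of cluster 1 and 1 of 18 of cluster 5. Hes1 was in 17 of 43, 18 of 29 and 9 of 18 of them. Jag1 had the reverse of the Hes5 order, with 19 of 43, 10 of 29 and 10 of 18, and a mean of 2.54, 1.29 and 3.08. Dll1 was at 1 TPM in 0 of 43 libraries of cluster 1 (its highest value was 0.72 TPM) and in 5 of 12 of the precursor-like cluster (2.23 ± 3.14). Hes6 was highest in the progenitor-like cluster (13 of 27, 2.96 ± 3.87), and Rbpj was in 11 of 27 there, 6 of 12 in the precursor-like and 0 of 8 in the endothelial-like cluster. In the latter, which also held the mural-marked libraries C129 and N14, Notch3 (3 of 8, 2.02 ± 3.39) and Jag1 (5 of 8, 3.33 ± 2.99) had their highest means. That placement depended on the number of clusters: with 6, the highest cluster mean was 0.53 for Notch3 and 3.08 for Jag1.

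**Figure D4:**
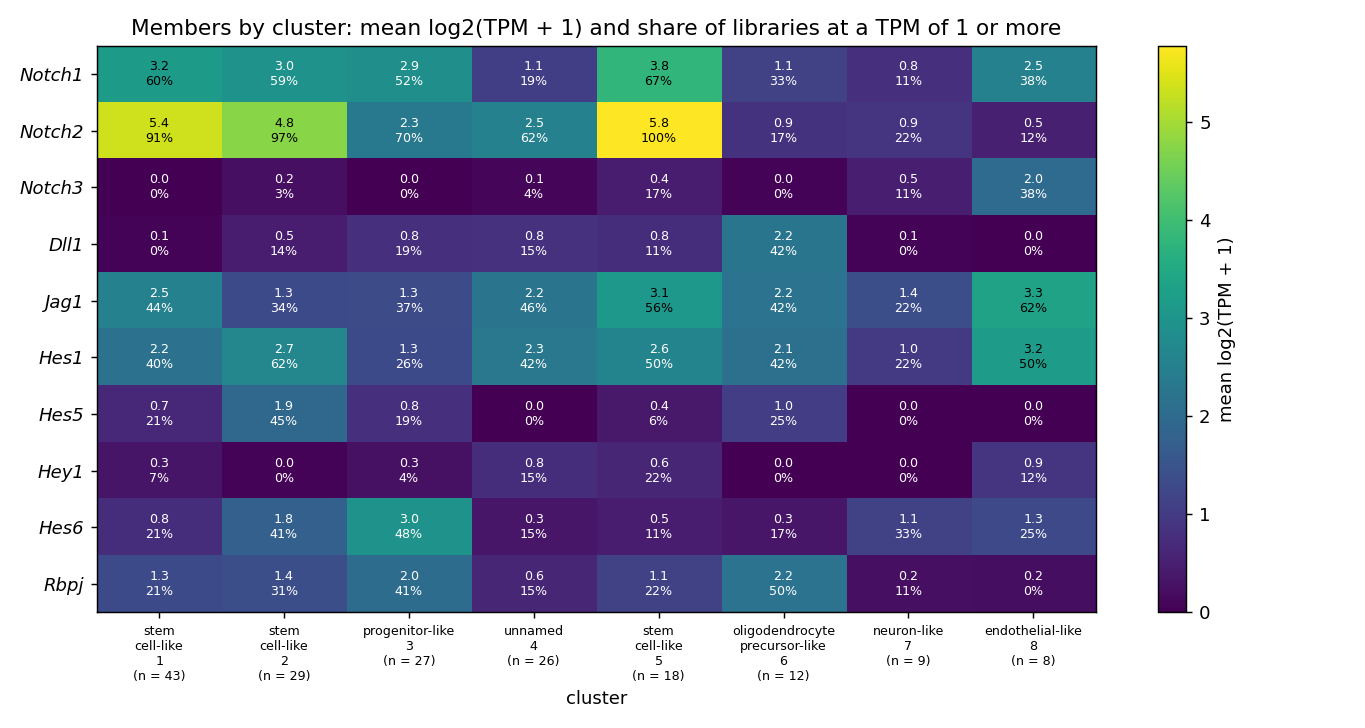
Mean log2(TPM + 1) of each of the 10 genes (rows) in each of the 8 clusters (columns), as colour, with the mean and the share of libraries at 1 TPM or more printed in each cell. Yellow stands for high and dark violet for low means. Notch2 is yellow to green in the 3 stem cell-like clusters (4.76 to 5.77) and dark in the precursor-like, neuron-like and endothelial-like ones (0.51 to 0.88), and the brightest cell of Hes6 is the progenitor-like cluster (2.96).

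C cells from the 4 clusters named for stem cells or progenitors were ranked by the leading principal component of genes in none of the lists, which held 6.68% of the variance, with the direction set so that progenitor markers lay late. Notch2 had the clearest relation to this order among the members. Its mean log2 level in 5 successive bins was 5.95 ± 2.17, 5.21 ± 1.94, 5.14 ± 1.70, 4.36 ± 2.28 and 2.36 ± 2.02, and its Spearman correlation with the rank was -0.49, at percentile 0.19 of 12007 genes. Each step between neighbouring bins, the last one included, was smaller than the SDs of both bins. When a new order was computed from the 93 non-cycling cells alone, the correlation of Notch2 with that order was -0.40. The points share library preparation, and the rank itself correlated with genes seen per library at 0.25 and with eCFP at -0.45.

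The other members had correlations nearer to 0. Jag1 went from 3.09 ± 3.52 in the first bin to 1.23 ± 1.82 in the last (correlation -0.22), and Notch1 from 3.68 ± 3.08 to 2.57 ± 2.61 (-0.16). Hes1 stayed between 2.06 and 2.89 over the first 4 bins and was at 0.90 ± 1.88 in the last, where 4 of 23 cells had it. Hes5 was seen in 3, 2, 10, 9 and 4 cells of the successive bins (0.14), so it was most frequent in the middle. With the new order computed from the non-cycling cells alone, its correlation was 0.31. Hes6 was at 1.13, 0.52, 0.68, 1.76 and 3.34 (0.24), and Rbpj was in 4, 6, 4, 8 and 11 cells (0.15). For these genes the steps between neighbouring bins were smaller than the SDs of both bins, except the last step of Hes1, which exceeded the SD of the last bin.

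**Figure D5:**
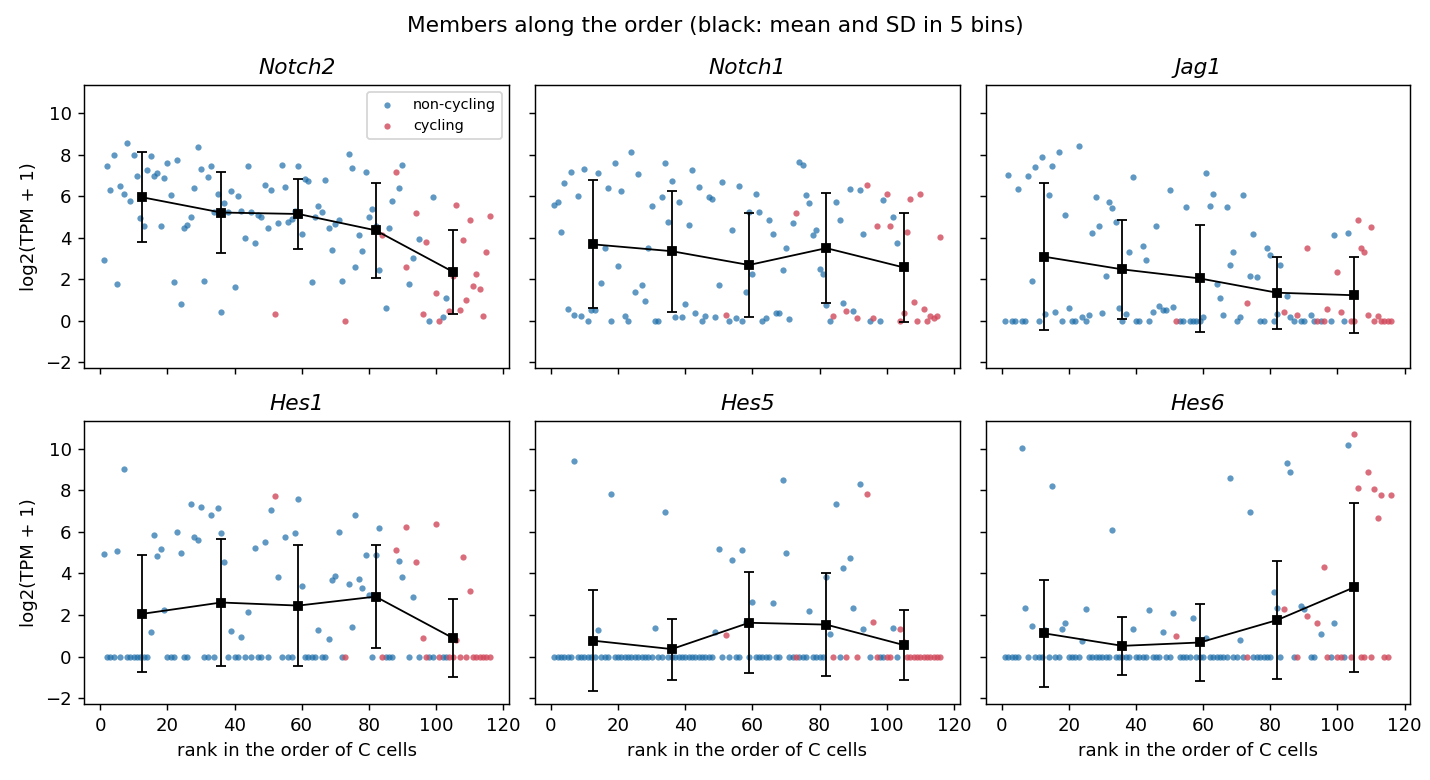
Levels of Notch2, Notch1, Jag1, Hes1, Hes5 and Hes6 (y axis, log2(TPM + 1)) against the rank of the C cells (x axis), with cycling cells in red and black squares for the mean and SD in 5 bins. Notch2 goes from 5.95 in the first bin to 2.36 in the last, Hes6 from 1.13 to 3.34, and Hes5 is seen most often in the middle of the order (10 and 9 cells of 23).

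Genes with the pattern most like each member were sought over all C libraries among 6314 genes seen in at least 20% of them, by Spearman correlation of at least 0.4. Notch2 had 3 such leading genes: Slc1a3 (0.61) and Slc1a2 (0.60), which encode glutamate transporters of astroglia, and Cst3 (0.54), which encodes the protease inhibitor cystatin C. Slc1a3 is also in the stem cell list and Slc1a2 in the astrocyte list, and Notch2 correlated with the mean of those lists at 0.52 and 0.42. With the number of genes seen per library it correlated at 0.09. Jag1 had 1 such gene, Rc3h1 (0.43), and the remaining members seen in at least 20% of C libraries had none.

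Jag1 and Hes5 stood out among the ligand and target pairs. Hes5 was at 1 TPM or more in 7 of 60 C libraries with Jag1 (11.7%) and in 23 of 82 without it (28.05%), and of the 6314 genes Jag1 had the lowest correlation with Hes5 (-0.30). With a level of 10 TPM for both genes the shares were 4.88% and 12.9%. In non-cycling C cells they were 12.96% and 29.7% at 1 TPM. The pair was picked out after its values were seen among 45 pairs, and no test was made. Hes1 was in 51.7% of the libraries with Jag1 and 42.7% of those without it, and in 48.7% and 43.8% of those with and without Notch1.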

How the data were processed

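The authors deposited 1 table of TPM values per gene and library, estimated with RSEM against mm9, per the submitters' processing notes; its version, the aligner and the annotation: not given in the sources used here. NuGEN Ultralow V2 was the library kit, per the labels' protocols. Every column summed to the same total, and 78.5% of values were 0. Of 172 columns, 171 matched 1 of 173 sample titles each; C27 fitted several and was used as a C library. Libraries needed 1000 genes at 1 TPM (0 removed), and genes 1 TPM in 5% of libraries (12007 kept).

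Levels were log2(TPM + 1), a scale that understates differences of low genes, and a mean difference of at least 1 was counted. Clusters (8, Ward) used 15 principal components of 2000 variable genes, and the order 1000. Doublets were not called. The members and all gene lists were chosen with earlier results of these data known. All 10 members are named, with pathway genes differing by at least 1 in the first 2 comparisons (at most 6 each; 1 gene is not reported here) and the 3 most correlated genes at 0.4 or more; single libraries, Notch4 and Ncstn in R were picked after seeing values. Alternatives covered the pseudocount, scaling, averaging, library minimum, marked libraries, cycling definition, each R library, cluster number and detection level. Python 3.11.15, pandas 2.3.3 and scipy 1.17.1 were used. Only the call on a difference of class means was tried on simulated data. Those were normally distributed values, unlike the many zeros here.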

Additional observations from a re-analysis of the deposited data

Results flagged for a closer look

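In the R libraries, a group of 4, the highest value stood far from the other 3 for 4 genes: Dll1 (0.48 TPM in R4), Jag1 (61.82 TPM in R2), Hes1 (0.5 TPM in R3) and Rbpj (0.2 TPM in R3), with the gap to the next library taking up from 0.94 to all of the range. Dll1, Hes1 and Rbpj were listed at 0 in the other 3 R libraries and stayed under 1 TPM in all 4. Chance flags about 1 in 20 groups by this rule, and genes listed at 0 in most libraries meet it with any single value above 0. Jag1 is the member of these 4 whose high value exceeded 1 TPM, and without R2 its difference from C was -1.96 in place of -0.50.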

How the results depend on the processing

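Counts of the 10 genes past a difference of 1 moved in 11 of 54 planned recomputed values and kept within 1.5 times in the other 43. For C above N, the 2 genes became 5 with a pseudocount of 0.1 (Hes1, Hes5 and Hes6 added), 1 with a pseudocount of 10 (Notch2) and 5 with log2 of the mean TPM, which also put 2 genes (Notch3 and Hey1) lower in place of 0. For cycling C cells, the 2 lower genes became 1 with a pseudocount of 10 (Notch2) and 4 with log2 of the mean TPM, and Hes6 remained the 1 higher gene under all settings run. For R, the 0 higher genes became 1 (Hes6) with a pseudocount of 0.1 and with median ratio rescaling, and 0 to 1 when each R library was left out in turn, the 1 arising without R3 or R4. The 4 lower genes became 9 with log2 of the mean TPM and 4 to 5 when each R library was left out (Jag1 added without R2). With log2 of the mean TPM the median over all genes was -2.13 for R minus C, itself past -1, so the 9 is no result about the members. The share of all genes past 1 was not computed with another pseudocount, scaling, averaging or set of libraries. The counts under those settings therefore have no background beside them. Hes6 in R minus C was 0.68, -0.39 without R2 and -2.26 with log2 of the mean TPM. For R minus N, leaving out each R library, added after seeing the data, gave 0 to 1 higher genes and 1 to 2 lower ones, the 0 and the 2 without R2. No called difference turned its sign. The median over all genes shifted by more than 0.1 with rescaling (C minus N by -0.13), with a pseudocount of 0.1 (0.14 there and -0.26 for R minus C), with a pseudocount of 10 (R minus C by 0.19), with cycling by Mki67 (0.11), without R3 (-0.11), and with log2 of the mean TPM (0.18, -0.46 and -1.77 in the 3 comparisons). The causes were not tested. With no filter on low values the background shares were 5.14% and 2.21% for C minus N, 8.11% and 2.51% for cycling cells, and 11.8% and 11.3% for R minus C. At 10 TPM in place of 1, Notch2 was 19.3 percentage points more frequent where Notch1 was seen (4.65 at 1 TPM), and Jag1 15.2 points more frequent where Notch2 was seen (29.7). With 6 clusters, the highest cluster mean of Notch3 was 0.53 in place of 2.02. No paired analysis was possible because each library is a separate cell and the title numbers pair no cells between the classes. Sequencing depth could not be had from TPM, so absence in a library cannot be told apart from too few reads.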

Other observations

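Among the 7 libraries at 4 or more on the endothelial list, Notch1 reached 1 TPM in 3 (152.0 TPM at most), Notch2 in 1, Hes1 in 4, Hey1 in 1, and Dll1 and Hes5 were listed at 0 in all 7. Among the 6 at 4 or more on the oligodendrocyte list, Jag1 did not exceed 0.59 TPM and Hes5 was listed at 0. The 11 libraries at 4 or more on the oligodendrocyte precursor list had Rbpj at 1 TPM or more in 5, Hes1 in 5 and Hes5 in 3, with 366.7 TPM of Hes5 in C132. The sets overlap: C139, with 50.3 TPM of Hes1, is in both the endothelial and the precursor set, and N20 in both the precursor and the oligodendrocyte set. These lists and the level of 4 select single libraries, and the numbers are too few for a comparison. At least 1 of the 10 genes was at 1 TPM or more in 161 of 172 libraries.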
